A study of Mus musculus with 12 samples.

Results

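The endoplasmic reticulum folds and modifies the proteins that a cell secretes or places in its membranes. When unfolded proteins accumulate there, the kinase and ribonuclease IRE1, the membrane-bound transcription factor ATF6 and the kinase PERK are activated, and together their signalling makes up the unfolded protein response, which raises chaperones, folding enzymes and the machinery that returns misfolded proteins to the cytosol for degradation. Rapidly growing tumors and cells with a high secretory load, such as plasma cells, are known to use this response. Here 32 genes of the response were followed in subcutaneous mouse rhabdomyosarcoma, out of 38898 genes in the tables. They were chosen as endoplasmic reticulum chaperones (9 genes), enzymes of the calnexin cycle and of disulfide formation (7), sensors, transcription factors and a regulator (4), components of endoplasmic reticulum-associated degradation (ERAD, 9) and of protein translocation and export (3). All 32 passed the filter on low counts, as did 17602 genes in all.

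RNA was sequenced from 12 whole tumors, 3 from each of 4 groups. Each tumor grew from Rd76-9 cells placed under the skin of the flank in wild-type C57Bl/6J mice, which were 8 to 12 weeks old. The line is of embryonal rhabdomyosarcoma, and methylcholanthrene had induced its tumor of origin, which arose in a female C57BL/6 mouse. Treatment began on day 7 and tumors were taken on day 16. Vincristine (VCR), which blocks microtubule assembly, was given intraperitoneally at 0.25 mg/kg every 7 days, and RCM1, a small-molecule inhibitor of the transcription factor FOXM1, was given intravenously at 8 µg per injection every 48 h inside folic acid-coated nanoparticles (RCM1-NPFA). The groups were vehicle (saline with empty nanoparticles, mice m1 to m3), VCR (m4 to m6), RCM1-NPFA (m7 to m9) and both drugs (VCR+RCM1-NPFA, m10 to m12). A label field lists RCM1 nanoparticles for the vehicle group, whereas the sample titles and the series design name controls given empty nanoparticles, and the latter was followed. All tumors came from 1 cell line, so mice and not independent tumors were the replicates. Values are given below in the order of the mouse numbers within each group. Each tumor had between 29342195 and 32108055 estimated counts, with medians of 30905970, 31373097, 31497456 and 31212431 in the vehicle, VCR, RCM1-NPFA and VCR+RCM1-NPFA groups. Levels are given as normalized counts scaled to depth (CPM), which follow 1 gene across tumors, and as TPM, which takes transcript length into account, where genes were compared with each other.

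The labelled tissue was checked against marker genes. Among 7 rhabdomyosarcoma or myoblast markers, the satellite cell adhesion gene Cdh15 had the highest mean, at 125 to 202 CPM, although Des was above it in m5, m9 and m11, and Myf5 was found in every tumor at 48.9 to 69.9 CPM. Myod1, Myog and Pax7 were all at 0 in vehicle tumor m2 and were at most 0.067 CPM in the other vehicle tumors. The summed level of the 10 adult muscle fibre markers, of which Myh4 had the highest mean, was 110.2, 10.4 and 12.8 CPM in the vehicle tumors, 3590, 11708 and 1539 in the VCR tumors, 97.6, 168 and 17738 in the RCM1-NPFA tumors and 2121, 4339 and 389 in the VCR+RCM1-NPFA tumors. VCR tumor m5 and RCM1-NPFA tumor m9 were thus far above the others, and vehicle tumors m2 and m3 were the lowest, with Myh4 at 0 in both. Summed levels over the 12 tumors ran from 673 to 873 CPM for 6 macrophage markers (highest mean, Csf1r), from 4327 to 7118 for 6 fibroblast markers (Col1a2, with Col3a1 close to it and higher in 6 tumors), from 107 to 191 for 4 endothelial markers (Cdh5), from 6.49 to 84.5 for 5 adipocyte markers (Fabp4) and from 5.04 to 6.52 for 4 keratinocyte markers (Krt10). In whole tumors, fewer cells of a type and less RNA per cell cannot be told apart, which holds for every level below.

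The response genes were abundant in the vehicle tumors. Per length, Hspa5, which encodes the major chaperone BiP, had the highest level of the 32, at 903 ± 96.1 TPM (mean ± SD, n = 3 vehicle tumors). It was followed by the lectin chaperone gene Calr at 895 ± 36.3 TPM and the endoplasmic reticulum HSP90 gene Hsp90b1 at 811 ± 111 TPM, and these 3 differed by less than their spread. The protein disulfide isomerase gene P4hb came next at 604 ± 75.4 TPM and Pdia3 at 401 ± 45.5 TPM. At the other end were the IRE1 gene Ern1 at 12.2 ± 3.399 TPM and Derl3, an ERAD channel gene, at 0.744 ± 0.246 TPM. Together the 32 genes took 0.767% of normalized counts in m5, the lowest tumor, and 0.915% in vehicle tumor m3, the highest. Within groups the members varied about as much as other genes of similar level, since the median within-group SD of log2 CPM was 0.12 for the 25 members at a mean of 50 CPM or more and 0.12 for all 4743 such genes. Tumors did not share the extremes evenly. Of the 32 genes, 10 were lowest in VCR tumor m5 and 9 in vehicle tumor m1, whereas 7 were highest in vehicle tumor m2 and 7 in vehicle tumor m3.

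**Figure D1:**
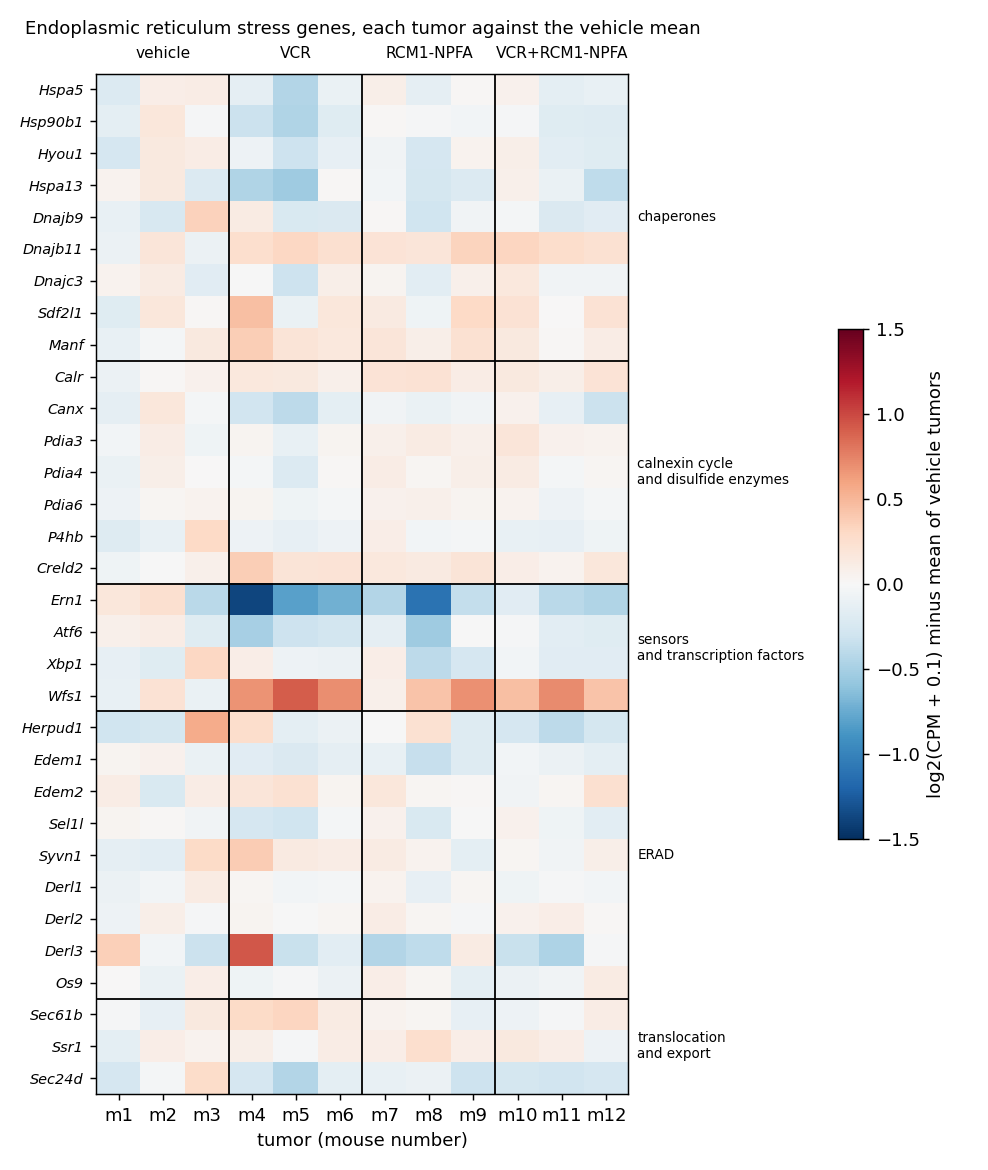
Heat map of the 32 genes (rows, grouped by role) in the 12 tumors (columns, grouped by treatment), with colours giving log2(CPM + 0.1) minus the mean of the 3 vehicle tumors. Wfs1 is above the vehicle mean in all 9 treated tumors and Ern1 is below it in all 9, while most other rows stay pale in every group.

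After VCR, 3 of the 32 genes passed an adjusted p of 0.1 by edgeR's quasi-likelihood test, beside 5.55% of all 17602 genes tested. Wfs1 and Creld2 were higher (2 genes, background 2.8% called higher) and Ern1 was lower (1 gene, background 2.75% called lower). The median log2 fold change of the 32 was -0.034, with 12 above 0 and 20 below, and that of all genes tested was 0.0016. For 27 of the 32, the 95% confidence interval of the fold change lay within 1.5-fold in either direction, beside 9016 of all 17602 genes. At an unadjusted p under 0.05 there were 11 of 32 members, or 34.4%, and 3892 genes in all, or 22.1%. The members were measured more precisely, with a median SE of 0.11 beside 0.16 for all genes. Their median log2 fold change regardless of sign was no larger, at 0.18 beside 0.20. Genes of similar level were not set beside the members for these counts. The values of the 3 VCR tumors did not overlap those of the 3 vehicle tumors for 10 members, 5 above and 5 below, beside 24.4% of all genes. DESeq2's Wald test called 8 of the 32 beside 14.4% of the genes it gave an adjusted p, and limma-voom called 3 beside 3.87%.

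The number of members called after VCR depended on single tumors. By edgeR, and in place of 3, it was 0 without m1, 0 without m2, 7 without m3, 0 without m4, 0 without m5, 7 without m6, 0 without m11 and 1 without m12. For all genes the count, 977 with all 12 tumors, was 281 without m1, 0 without m2, 1288 without m3, 0 without m4, 0 without m5, 2012 without m6, 525 without m10, 1 without m11 and 243 without m12.

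The chaperones gave no call after VCR by edgeR (0 of 9, with 3 at an unadjusted p under 0.05), while DESeq2 called 3 of them, Hsp90b1, Dnajb11 and Manf. Hspa5 read 1152, 1431 and 1434 CPM in the vehicle tumors, 1217, 984 and 1243 in the VCR tumors, 1421, 1212 and 1352 in the RCM1-NPFA tumors and 1395, 1206 and 1236 in the VCR+RCM1-NPFA tumors. VCR tumor m5 was the lowest of all 12, and the groups overlapped throughout. After VCR Hspa5 stood at -0.22 on the log2 scale (SE 0.12, 95% confidence interval -0.48 to 0.033, edgeR adjusted p = 0.284), and after RCM1-NPFA it was -0.012 (interval -0.27 to 0.24). When single tumors were left out, the VCR value of Hspa5 ran from -0.32 to -0.12. Hsp90b1, whose product folds a narrower set of clients, read 1174, 1463 and 1282 CPM in the vehicle tumors, 1037, 950.3 and 1150 in the VCR tumors, 1315, 1281 and 1270 in the RCM1-NPFA tumors and 1289, 1148 and 1138 in the VCR+RCM1-NPFA tumors. Each VCR tumor was below each vehicle tumor, most closely m6 at 1150 against m1 at 1174, whereas the other treated groups overlapped vehicle. The VCR difference was -0.32 (SE 0.10) and lay just beyond the threshold by edgeR (adjusted p = 0.103), with DESeq2 giving -0.33 (adjusted p = 0.0209). It passed by edgeR with DESeq2 size factors (adjusted p = 0.0989) and with genes kept at a mean of at least 50 counts (0.0792), a filter that gave 4 members beside 1226 of all genes. The edgeR adjusted p was 0.0605 without m6 and 0.0999 without m9.

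Hyou1, a large chaperone related to HSP70 that exchanges nucleotides for BiP, read 216, 284 and 277 CPM in the vehicle tumors, 244, 207 and 236 in the VCR tumors, 248, 215 and 267 in the RCM1-NPFA tumors and 272, 231 and 227 in the VCR+RCM1-NPFA tumors. Its lowest values were in m5, m8 and m1, so that vehicle tumors stood at both ends of the range. Dnajb9, a J-domain cochaperone of BiP that is a sensitive target of spliced XBP1, read 14.2, 13.04 and 19.6 CPM in the vehicle tumors, 16.8, 13.1 and 13.3 in the VCR tumors, 15.6, 12.5 and 14.9 in the RCM1-NPFA tumors and 15.04, 13.2 and 13.6 in the VCR+RCM1-NPFA tumors. Vehicle tumor m3 was the highest, and every treated group overlapped vehicle. Sdf2l1, which binds BiP together with J-domain proteins, read 26.4, 33.8 and 30.3 CPM in the vehicle tumors, 41.1, 28.02 and 33.9 in the VCR tumors, 32.97, 28.8 and 37.1 in the RCM1-NPFA tumors and 35.02, 30.1 and 34.8 in the VCR+RCM1-NPFA tumors. VCR tumor m4 was the highest and vehicle tumor m1 the lowest. None of these 3 genes had an adjusted p under 0.1 by edgeR in any of the 8 comparisons, with the smallest unadjusted p after VCR being 0.178 for Hyou1.

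Dnajb11, a J-domain cochaperone that recruits BiP to its substrates, read 88.9, 107 and 88.6 CPM in the vehicle tumors, 112, 117 and 111 in the VCR tumors, 109, 107 and 119 in the RCM1-NPFA tumors and 118, 113 and 110.1 in the VCR+RCM1-NPFA tumors. Every one of the 9 treated tumors was above every vehicle tumor, although m8 and m2 both rounded to 107 CPM. Calr was the other member for which this held, which makes 2 of 32 beside 4.29% of all genes. The log2 fold changes of Dnajb11 were 0.26 after VCR, 0.24 after RCM1-NPFA and 0.26 after both (each SE 0.081), with edgeR adjusted p of 0.109, 0.433 and 0.666 and a DESeq2 adjusted p of 0.0576 after VCR. These 3 comparisons share the vehicle tumors, so they are not independent. Manf, a secreted protein retained by BiP, read 125, 132 and 149 CPM in the vehicle tumors, 174, 154 and 150.1 in the VCR tumors, 153, 144 and 158 in the RCM1-NPFA tumors and 149, 136 and 146 in the VCR+RCM1-NPFA tumors. The VCR tumors were above the vehicle tumors, m6 at 150.1 against m3 at 149 by little, and the other groups overlapped vehicle. Its DESeq2 adjusted p after VCR was 0.0939, and that of edgeR was 0.143 with all tumors and 0.0780 without m3. The remaining chaperone genes, Hspa13 and Dnajc3, ranged from 31.8 to 51.1 and from 69.4 to 96.0 CPM, and both were lowest in m5, with Hspa13 passing as lower after VCR by edgeR only in the fit without m6.

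Among the 7 enzymes of the calnexin cycle and of disulfide formation, 1 passed after VCR. Creld2, a target of the response with thioredoxin-like motifs, read 75.4, 78.1 and 82.8 CPM in the vehicle tumors, 101, 90.1 and 91.01 in the VCR tumors, 87.8, 86.5 and 90.2 in the RCM1-NPFA tumors and 84.2, 81.6 and 88.4 in the VCR+RCM1-NPFA tumors. All VCR tumors were above all vehicle tumors, as were all RCM1-NPFA tumors, while VCR+RCM1-NPFA tumor m11 lay below vehicle tumor m3. After VCR Creld2 rose 1.195-fold (log2 fold change 0.26, SE 0.066, edgeR adjusted p = 0.0850, higher in 3 of 3 VCR tumors than in any vehicle tumor). The adjusted p of Creld2 was 0.154 without m1, 0.183 without m2, 0.236 without m4, 0.283 without m5, 0.111 without m10, 0.127 without m11 and 0.110 without m12. It was also past 0.1 without a filter on low counts (0.140) and in a fit of the VCR and vehicle tumors alone (0.193), each with 2 members called. With smooth offsets for transcript length, chosen after seeing the data, Creld2 stood at 0.060 (edgeR adjusted p = 0.743), where the median of all genes was -0.083. In the interaction of the drugs, that is the VCR difference with RCM1-NPFA minus the VCR difference without it, Creld2 stood at -0.32 (SE 0.093, edgeR adjusted p = 0.293).

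Calr, the soluble lectin chaperone that holds glycoproteins for refolding, read 928, 1001 and 1036 CPM in the vehicle tumors, 1102, 1093 and 1039 in the VCR tumors, 1136, 1151 and 1068 in the RCM1-NPFA tumors and 1097, 1049 and 1135 in the VCR+RCM1-NPFA tumors. The treated tumors began at 1039 CPM in m6, just above the highest vehicle tumor, m3 at 1036. The log2 fold changes were 0.13 after VCR, 0.18 after RCM1-NPFA and 0.15 after both (each SE 0.068), and none passed by edgeR (adjusted p 0.300, 0.437 and 0.691). Canx, the membrane-bound partner of Calr in the cycle, had a negative value after VCR (-0.28, edgeR adjusted p = 0.171, DESeq2 adjusted p = 0.0875), and each VCR tumor was below each vehicle tumor. Pdia4, a protein disulfide isomerase, read 192, 219 and 206 CPM in the vehicle tumors, 202, 179 and 209 in the VCR tumors, 221, 209.9 and 218 in the RCM1-NPFA tumors and 224, 201 and 210.4 in the VCR+RCM1-NPFA tumors. Its groups overlapped in every comparison with vehicle, with m5 the lowest tumor. From lowest to highest tumor, Pdia4 spanned 1.25-fold, and of the other isomerases Pdia6 spanned 1.10-fold, Pdia3 1.22-fold and P4hb 1.41-fold, the last with its maximum in vehicle tumor m3.

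**Figure D2:**
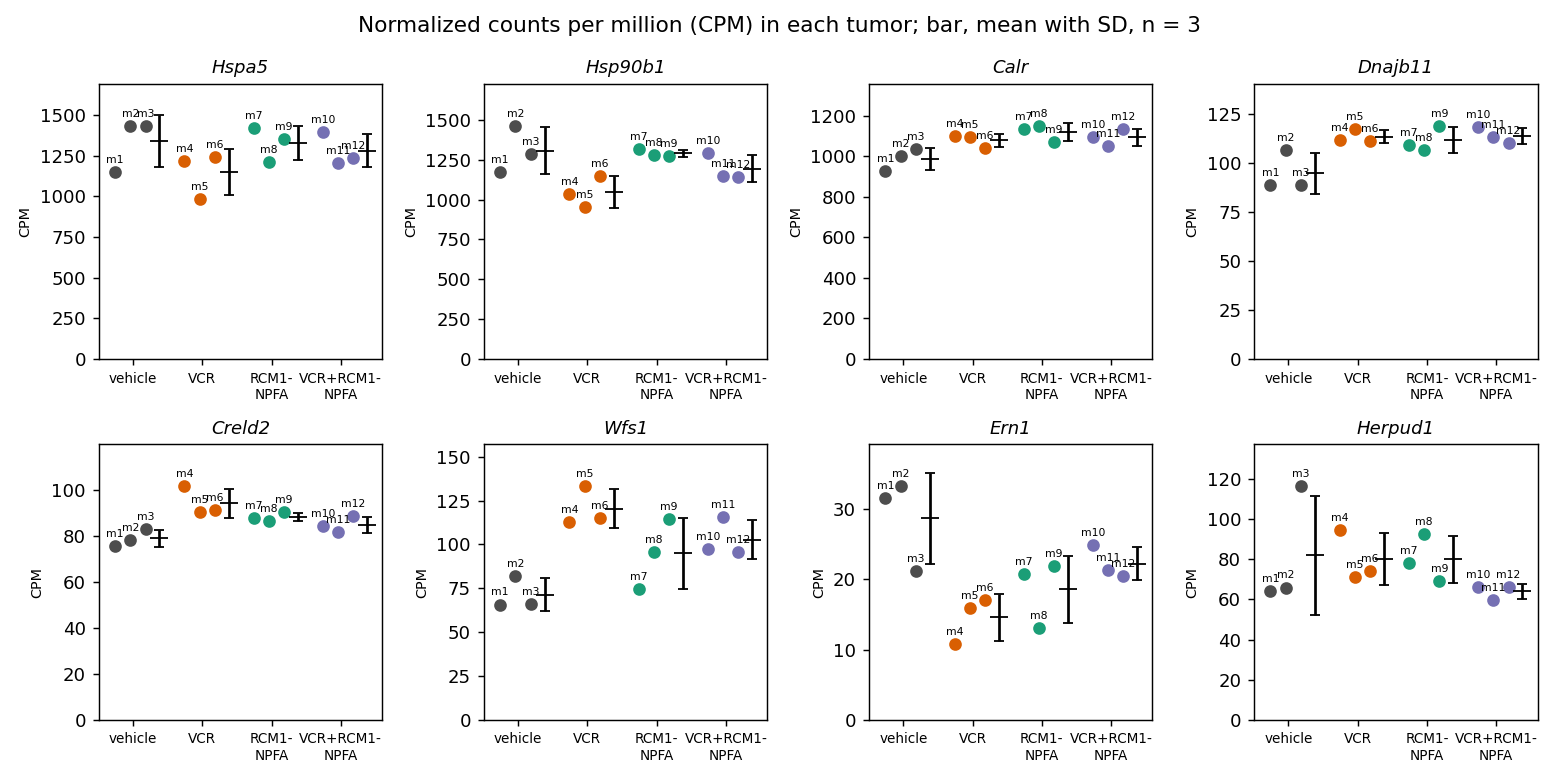
CPM of 8 genes in each tumor (points, labelled by mouse) by treatment group, with the mean and SD of the 3 tumors beside them and each vertical axis starting at 0. Hspa5 and Herpud1 in each treated group overlap vehicle, Calr and Dnajb11 are above vehicle in the 9 treated tumors, Wfs1 and Creld2 are above vehicle in the VCR tumors and Ern1 is below.

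The other 2 calls after VCR were sensors or regulators. Ern1 encodes IRE1 and read 31.6, 33.2 and 21.2 CPM in the vehicle tumors, 10.8, 15.9 and 17.1 in the VCR tumors, 20.7, 13.1 and 21.9 in the RCM1-NPFA tumors and 24.9, 21.3 and 20.5 in the VCR+RCM1-NPFA tumors. The VCR tumors, at 10.8 to 17.1 CPM, were below the vehicle tumors, of which m3 was the lowest at 21.2 CPM, and RCM1-NPFA tumor m8 was as low as the VCR tumors. After VCR Ern1 fell to 0.509 of its vehicle level (log2 fold change -0.97, SE 0.23, interval -1.48 to -0.47, edgeR adjusted p = 0.0763, lower in 3 of 3 tumors). Its adjusted p was 0.137 without m1, 0.179 without m2, 0.224 without m4, 0.283 without m5, 0.120 without m11 and 0.104 without m12. Ern1 stood at -0.63 after RCM1-NPFA (SE 0.23, edgeR adjusted p = 0.437) and -0.37 after both drugs (SE 0.23, edgeR adjusted p = 0.742). Ern1 had the lowest unadjusted p of the 32 for the interaction, 0.00280, with a value of 1.24 (SE 0.33). The edgeR adjusted p of that interaction was 0.293, whereas DESeq2 gave 1.24 with an adjusted p of 0.0260.

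Wfs1 encodes wolframin, an endoplasmic reticulum membrane protein that promotes the degradation of ATF6 and is also known for its part in calcium handling, and read 65.7, 82.2 and 65.97 CPM in the vehicle tumors, 113, 133 and 115 in the VCR tumors, 74.5, 95.6 and 114 in the RCM1-NPFA tumors and 97.1, 115 and 95.4 in the VCR+RCM1-NPFA tumors. The VCR and VCR+RCM1-NPFA tumors were all above the vehicle tumors, whereas RCM1-NPFA tumor m7 at 74.5 CPM lay below vehicle tumor m2 at 82.2 CPM. Wfs1 rose 1.69-fold after VCR (log2 fold change 0.75, SE 0.15, interval 0.43 to 1.08, edgeR adjusted p = 0.0676), the lowest unadjusted p of the 32 in that comparison. This adjusted p was 0.107 without m1, 0.156 without m2, 0.213 without m4, 0.280 without m5 and 0.115 without m11. The log2 fold changes after RCM1-NPFA and after both drugs were 0.41 and 0.53, with edgeR adjusted p of 0.437 and 0.666. The RCM1-NPFA value of Wfs1 ran from 0.26 to 0.56 when single tumors were left out, and was 0.25 without m5 and m9. Wfs1 was highest in m5, and within the RCM1-NPFA group it was highest in m9, the tumors with the largest summed level of the 10 muscle fibre markers (11708 and 17738 CPM).

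All 10 of these markers were found, and 4 of them passed as higher after VCR by edgeR. Of the other marker lists, 3 of 6 tested myoblast markers, 2 of 6 fibroblast markers and 1 of 4 plasma cell markers passed as higher after VCR, and 0 of the macrophage, endothelial, adipocyte and keratinocyte markers did. In the VCR+RCM1-NPFA group m11 was highest for both Wfs1 and the muscle fibre sum, at 4339 CPM, whereas in the vehicle group m2 was highest for Wfs1 and m1 for the sum. Without m5 and m9 Wfs1 stood at 0.67 after VCR and passed (edgeR adjusted p = 0.0675), as the only member to do so, while Ern1 at -1.05 and Creld2 at 0.28 did not (edgeR adjusted p = 0.132 and 0.184). In that fit the remaining VCR tumors m4 and m6 still had muscle fibre sums of 3590 and 1539 CPM, and the part of muscle RNA in the Wfs1 level was not tested.

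Atf6, the sensor that is cut in the Golgi to release a transcription factor, read 81.1, 83.2 and 68.3 CPM in the vehicle tumors, 54.6, 62.3 and 63.6 in the VCR tumors, 70.1, 53.1 and 77.2 in the RCM1-NPFA tumors and 76.1, 69.4 and 67.8 in the VCR+RCM1-NPFA tumors. Each VCR tumor was below each vehicle tumor, and RCM1-NPFA tumor m8 was the lowest of all. The VCR value was -0.37 (SE 0.13, edgeR adjusted p = 0.136, and 0.0980 without m3 and 0.0835 without m8), and DESeq2 called it (adjusted p = 0.0600). Xbp1, whose mRNA is the substrate of IRE1, read 105, 101 and 142 CPM in the vehicle tumors, 123, 109 and 108 in the VCR tumors, 123, 87.5 and 96.3 in the RCM1-NPFA tumors and 112, 102 and 102 in the VCR+RCM1-NPFA tumors. Vehicle tumor m3 was the highest and RCM1-NPFA tumor m8 the lowest, with overlap in all comparisons with vehicle, and the sign of the VCR difference turned from -0.033 to 0.14 without m3.

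IRE1 removes 26 bases from Xbp1 mRNA, which shifts the reading frame and gives the active transcription factor. The reference transcripts held the spliced and the unspliced form, which differ in length by those 26 bases, so the share of the spliced form among Xbp1 estimated counts could be read in each tumor. The stretch is shown since it is what tells the forms apart. It lies in exon 4 of Xbp1, within the coding sequence, at chr11:5524279-5524304 on the plus strand of GRCm38 (GENCODE vM21), and was found as the single pair of 7-base loops, with the pattern C, any base, GC, any base, GC, spaced 26 bases apart. Capitals mark the bases removed when each loop is cut after the third base, with 15 bases printed on each side, chr11:5524264-5524319.
Xbp1 splice site: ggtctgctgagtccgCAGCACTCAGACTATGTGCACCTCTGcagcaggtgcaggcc

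The spliced share was 14.9%, 25.8% and 23.5% in the vehicle tumors, 14.8%, 15.5% and 11.7% in the VCR tumors, 19.8%, 15.4% and 17.3% in the RCM1-NPFA tumors and 23.5%, 16.8% and 12.3% in the VCR+RCM1-NPFA tumors. Vehicle tumors m2 and m3 and VCR+RCM1-NPFA tumor m10 were the highest, the VCR tumors were all at or under 15.5%, and vehicle tumor m1 lay among them. Only fragments that cover the splice site inform the share, about 256 to 429 per tumor from the fragment lengths, and on that approximate number the 95% Wilson intervals, which cover counting error alone, ran from 20.8% to 31.1% in m2 and from 8.61% to 15.6% in m6. Group means were 21.4% ± 5.703 in vehicle, 14.01% ± 2.05 after VCR, 17.5% ± 2.201 after RCM1-NPFA and 17.5% ± 5.63 after both (SD, n = 3 each). The difference from vehicle was -7.39 percentage points after VCR, -3.89 after RCM1-NPFA and -3.88 after both. Exact permutation tests (two-sided) gave p of 0.2, 0.4 and 0.4, or 0.4 for each after adjustment over the 3 comparisons, where 3 against 3 tumors cannot go below 0.1.

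**Figure D3:**
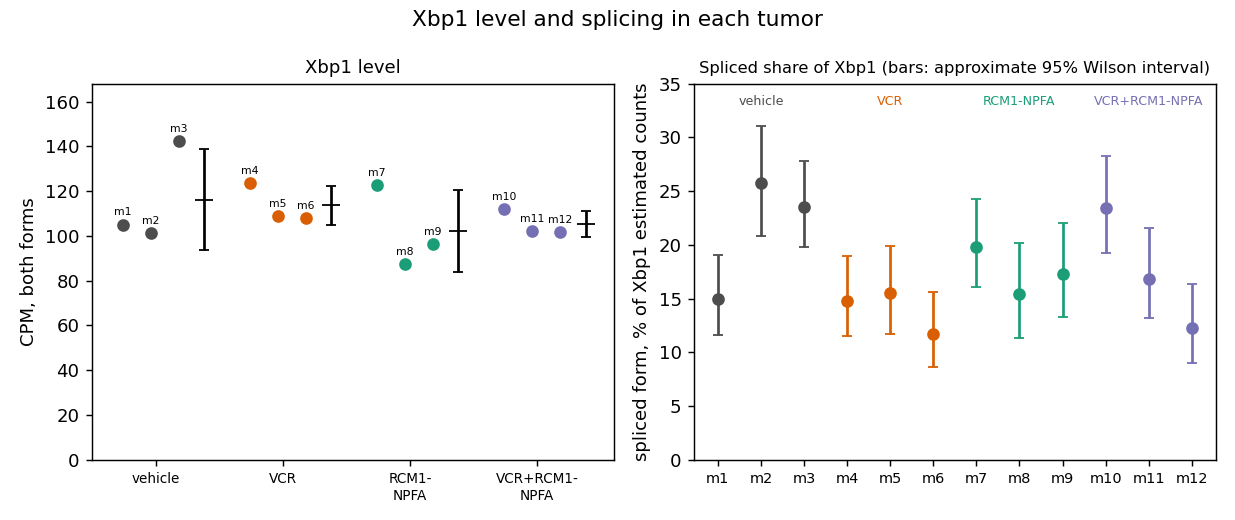
Left, CPM of Xbp1 in each tumor by group (points) with mean and SD of 3 tumors. Right, spliced form as a percentage of Xbp1 estimated counts in each tumor, with bars for the approximate 95% Wilson interval of the fragments over the splice site. The share is highest in vehicle tumor m2 at 25.8% and lowest in VCR tumor m6 at 11.7%, and vehicle tumor m1 lies within the VCR range.

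Of the 9 ERAD genes, 0 passed by edgeR after VCR, with 1 (Edem1) at an unadjusted p under 0.05 and 0 called by DESeq2. Herpud1, a ubiquitin-like scaffold of the degradation complex and a strong target of the response, read 63.99, 65.9 and 116 CPM in the vehicle tumors, 94.7, 71.3 and 74.3 in the VCR tumors, 78.4, 92.3 and 69.2 in the RCM1-NPFA tumors and 66.2, 59.9 and 65.9 in the VCR+RCM1-NPFA tumors. Vehicle tumor m3 was the highest of the 12 by a wide margin while m1 and m2 were among the lowest, so the vehicle group spanned nearly the whole range. The VCR+RCM1-NPFA tumors were all below the VCR and the RCM1-NPFA tumors, at a log2 fold change of -0.32 each (edgeR adjusted p = 0.855 and 0.99986). In these comparisons groups did not overlap for 8 and 2 of 32 members, beside 2272 and 1035 of all 17602 genes. After VCR Herpud1 stood at -0.035 (interval -0.49 to 0.42), and it stood at 0.30 without m3. Edem1, which extracts misfolded glycoproteins from the calnexin cycle, read 117, 119 and 106 CPM in the vehicle tumors, 102, 98.1 and 104 in the VCR tumors, 106, 89.9 and 99.8 in the RCM1-NPFA tumors and 111, 107 and 103 in the VCR+RCM1-NPFA tumors. The VCR and the RCM1-NPFA tumors were each below the vehicle tumors, at log2 fold changes of -0.17 and -0.21 (each SE 0.074, edgeR adjusted p = 0.199 and 0.433), while the VCR+RCM1-NPFA tumors overlapped them.

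Derl3, a derlin known for secretory tissues, was near the detection limit with 10 to 32 estimated counts per tumor. It read 0.648, 0.470 and 0.370 CPM in the vehicle tumors, 1.02, 0.364 and 0.422 in the VCR tumors, 0.331, 0.351 and 0.535 in the RCM1-NPFA tumors and 0.365, 0.323 and 0.480 in the VCR+RCM1-NPFA tumors. VCR tumor m4 was the highest, and all treated groups overlapped vehicle. Plasma cells are rich in this response, and of their 8 markers the 6 present in the tables (all but Igkc and Ighm) summed to 135, 124 and 120.1 CPM in the vehicle tumors, 167, 159 and 153 in the VCR tumors, 158, 154 and 146 in the RCM1-NPFA tumors and 153, 138 and 138 in the VCR+RCM1-NPFA tumors. Sdc1 made up most of that in every tumor, whereas the defining plasma cell genes were low, with Jchain highest in m4 at 6.44 CPM and m1 at 4.998 CPM and Tnfrsf17 at 0 in m3 and m9. Their part in the Derl3 level of m4 was not tested. From the lowest to the highest tumor, the derlin genes Derl2 and Derl1 spanned 1.14-fold and 1.19-fold, the lectin gene Os9 and the mannosidase-like gene Edem2 1.20-fold and 1.39-fold, and Sel1l and Syvn1, which form the core ubiquitin ligase, 1.29-fold and 1.45-fold. Syvn1 was highest in m4 and passed after VCR by edgeR only in the fit without m3, Sel1l was highest in m10 and passed as lower only in the fit without m6, and Edem2 was highest in m12.

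Among the 3 genes of translocation and export, 0 passed by edgeR after VCR, with 2 (Sec61b and Sec24d) at an unadjusted p under 0.05 and 0 by DESeq2. Sec61b, a subunit of the channel through which new proteins enter the endoplasmic reticulum, read 66.4, 61.3 and 74.03 CPM in the vehicle tumors, 82.2, 84.2 and 72.8 in the VCR tumors, 69.7, 68.6 and 61.4 in the RCM1-NPFA tumors and 63.8, 66.1 and 72.3 in the VCR+RCM1-NPFA tumors. VCR tumors m4 and m5 were the highest, m6 lay below vehicle tumor m3, and the other groups overlapped vehicle. Sec61b stood at 0.24 after VCR (SE 0.089, edgeR adjusted p = 0.148, and 0.0875 without m3 and 0.099999 without m6) and -0.24 when VCR+RCM1-NPFA was set against VCR, where it had the lowest unadjusted p of the 32, 0.0193 (edgeR adjusted p = 0.855). Sec24d, a cargo adaptor of the vesicles that leave the endoplasmic reticulum, was highest in vehicle tumor m3 at 204 CPM and lowest in m5 at 124 CPM, and Ssr1 of the translocon spanned 1.32-fold.

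The PERK arm and other genes of the pathway were followed beside the members. Of 64 other pathway genes 63 were tested, and after VCR 2 passed as higher and 1 as lower by edgeR. These calls made up 4.76% of the 63, beside 5.55% of all genes tested, and the median log2 fold change of the 63 was 0.017. The 2 that were higher were the COPII coat gene Sec13 (0.21, edgeR adjusted p = 0.0992) and the ERAD ubiquitin-conjugating enzyme gene Ube2g2 (0.34, edgeR adjusted p = 0.0761). The gene that was lower was Uggt1, the folding sensor that returns glycoproteins to the calnexin cycle (-0.33, edgeR adjusted p = 0.0908). Eif2ak3, which encodes PERK, read 28.8, 25.4 and 30.4 CPM in the vehicle tumors, 28.9, 26.7 and 28.01 in the VCR tumors, 30.8, 29.6 and 25.1 in the RCM1-NPFA tumors and 28.4, 30.5 and 25.6 in the VCR+RCM1-NPFA tumors and overlapped between all groups. Ddit3, which encodes CHOP, read 25.1, 37.2 and 59.2 CPM in the vehicle tumors, 33.5, 25.5 and 26.6 in the VCR tumors, 28.5, 30.4 and 32.8 in the RCM1-NPFA tumors and 27.3, 23.5 and 29.7 in the VCR+RCM1-NPFA tumors. Vehicle tumor m3, which also led for Herpud1, Xbp1, Dnajb9, P4hb and Sec24d, was the highest, followed by m2. Atf4, the transcription factor translated when PERK is active, was likewise highest in m3 at 496 CPM, and all treated groups overlapped vehicle, since m1 was at 319 CPM. After both drugs Atf4 stood at -0.34 and Ddit3 at -0.59 (edgeR unadjusted p = 0.0327 and 0.0311, adjusted p = 0.682 for each). Of 15 PERK and shared regulator genes, 4 were at an unadjusted p under 0.05 there, beside 7.31% of all genes. Values were below 0 for 13 of the 15, beside 8732 of all 17602 genes. The protease genes Mbtps1 and Mbtps2, whose products cut ATF6, stood at -0.25 and -0.39 after VCR, with every VCR tumor below every vehicle tumor (edgeR adjusted p = 0.110 and 0.111).

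For RCM1-NPFA against vehicle, 0 of 32 members and 0% of all genes passed by edgeR. At an unadjusted p under 0.05 there were 6 members (18.8%) and 1722 genes (9.78%). DESeq2 called 0 members among its 278 genes and limma-voom 0 members among 0 genes. The 6 were Dnajb11, Edem1, Wfs1, Ern1, Calr and Creld2, and Dnajb11 had the lowest unadjusted p, 0.0134. Groups did not overlap for 5 members, beside 11.4% of all genes, and the median of the 32 was -0.013 beside 0.0028 for all genes. For VCR+RCM1-NPFA against vehicle, 0 of 32 members and 0% of all genes passed by edgeR. At an unadjusted p under 0.05 there were 3 members (Wfs1, Dnajb11 and Sec24d, 9.38%) and 1286 genes (7.31%). DESeq2 called 0 members among its 60 genes, and limma-voom called 0. Groups did not overlap for 4 members, beside 12.6% of all genes, and the medians were -0.029 and 0.0016. In place of 0, all genes called by edgeR numbered 8 without m3 after RCM1-NPFA and 44 without m9 after both drugs.

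The combination was also set against each single drug. Against VCR alone, 0 of 32 members and 0% of all genes passed by edgeR, with 3 members (Sec61b, Ern1 and Creld2) and 926 genes (5.26%) at an unadjusted p under 0.05 and 0 by DESeq2 and limma-voom. Ern1 was higher with the combination in all 3 tumors, at a log2 fold change of 0.61 (SE 0.23, edgeR adjusted p = 0.855). Groups did not overlap for 8 of 32 members in that comparison, beside 2272 of all 17602 genes. Against RCM1-NPFA alone, 0 of 32 members and 0% of all genes passed by edgeR, with 0 members and 364 genes at an unadjusted p under 0.05 and 0 by DESeq2 and limma-voom, and the lowest unadjusted p among members was 0.140 for Edem1. The interaction gave 0 of 32 members and 0% of all genes by edgeR, with 6 members (18.8%) and 2437 genes (13.8%) at an unadjusted p under 0.05. DESeq2 called 2 members for it, Ern1 and Creld2 (-0.31), beside 2.84% of genes, and limma-voom 0. All genes called by edgeR for it numbered 1 without m7 in place of 0.

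Averaged over both levels of the other drug, VCR gave 0 of 32 members and 0% of all genes by edgeR, with 5 members and 1849 genes (10.5%) at an unadjusted p under 0.05. Wfs1 had the lowest of these, with a log2 fold change of 0.43 (SE 0.11, edgeR adjusted p = 0.396). DESeq2 called Wfs1 as its only member (0.43, adjusted p = 0.0361) beside 1.19% of genes, and limma-voom called 0. Without RCM1-NPFA tumor m9 edgeR called 1 of 32 members here, Wfs1, and all genes called numbered 6 without m6, 341 without m9 and 1 without m11 in place of 0. RCM1-NPFA averaged over VCR gave 0 of 32 members and 0% of all genes by edgeR, with 0 members and 439 genes at an unadjusted p under 0.05 and 0 by DESeq2 and limma-voom. The 95% intervals of 31 of the 32 lay within 1.5-fold, beside 12571 of all 17602 genes.

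Changes after VCR moved with transcript length. Among all genes, split into 5 equal bins by transcript length, the median log2 fold change was 0.14 in the bin of the shortest and 0.076, 0.019, -0.057 and -0.19 in the bins that followed. All 5 members in the shortest bin (Sec61b, Manf, Sdf2l1, Derl3 and Creld2) were above 0, with a median of 0.24, and of the 12 members in the 2 bins with the longest transcripts, 10 were below 0. Wfs1, with a mean effective length of 3392 bases, went against this order, as did Ssr1 at 5459 bases with a smaller value of 0.061. After RCM1-NPFA and after both drugs the medians of all genes ran from 0.054 to -0.12 and from 0.057 to -0.084. With offsets from the effective length of each gene in each tumor, 3 members passed by edgeR after VCR, beside 761 of all genes, with adjusted p of 0.0713 for Wfs1, 0.0825 for Ern1 and 0.0937 for Creld2. In a fit with offsets drawn as smooth curves over length, chosen after seeing the data, 0 of the 32 members passed by edgeR after VCR, beside 43 of all genes, with Wfs1 at 0.71 (edgeR adjusted p = 0.103), Ern1 at -0.99 (0.112) and Creld2 at 0.060 (0.743). These curves also moved the median of all genes after VCR from 0.0016 to -0.083 and that of the 32 members from -0.034 to -0.12.

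**Figure D4:**
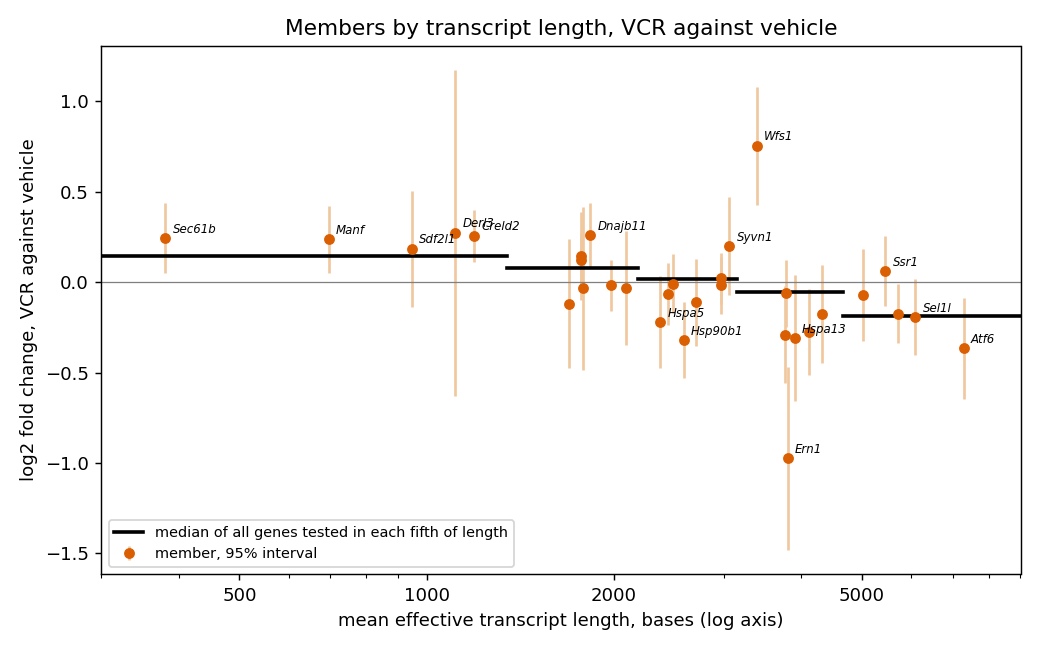
Log2 fold change after VCR (points, with 95% confidence intervals) of the 32 genes against mean effective transcript length in bases on a log axis, with black lines for the median of all genes tested in each of 5 equal bins of length, the outer lines being clipped to the plotted range. The 5 members in the shortest bin lie above 0 and 10 of the 12 in the 2 longest bins lie below, with Wfs1 at 0.75 and Ern1 at -0.97 apart.

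Relations of 4 pairs were examined across the 12 tumors on log2 CPM, with p adjusted over the 4. For Hspa5 and Hsp90b1, Pearson r was 0.857 (permutation p = 0.000490, adjusted 0.00196) and Spearman rho 0.762 (permutation p = 0.00530, adjusted 0.0212). Without m3 and m5, the tumors farthest from the median of Hspa5, r was 0.756, and for deviations from group means it was 0.811, so the pair varied together within groups as well. For Hspa5 and Dnajb9, Pearson r was 0.469 (permutation p = 0.127, adjusted 0.169) and Spearman rho 0.441 (permutation p = 0.154, adjusted 0.205), and r was 0.211 without m3 and m5 and 0.520 within groups. For Hspa5 and Ddit3, Pearson r was 0.561 (permutation p = 0.0646, adjusted 0.129) and Spearman rho 0.678 (permutation p = 0.0185, adjusted 0.0370), so that the rank measure passed 0.05 and the linear measure did not; r was 0.476 without m3 and m5. For the spliced share of Xbp1 and Dnajb9, Pearson r was 0.370 (permutation p = 0.239, adjusted 0.239) and Spearman rho 0.154 (permutation p = 0.634, adjusted 0.634), with r at 0.403 without m2 and m3. Tumors with high Hspa5 thus tended to have high Hsp90b1, and no relation of Dnajb9 to the spliced share passed these tests.

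ATF6 is known to act with the factor NF-Y through the endoplasmic reticulum stress element (ERSE). In the 250 bases before the start of each gene (RefSeq, GRCm38.p6), 27 of the 32 members had a promoter sequence, and 9 of these 27 held ERSE, written CCAAT, 9 bases of any kind and CCACG, on either strand: Hspa5, Hsp90b1, Calr, Canx, Pdia6, Dnajc3, Creld2, Syvn1 and Derl3. Among all 27025 genes with such a sequence, members included, 35 held it, or 0.130%. ERSE-II (ATTGG, 1 base of any kind and CCACG) was found in Herpud1, 1 of 27 members, and in 0.0370% of genes. The core of the unfolded protein response element, TGACGTGG, was found in Sec24d, 1 of 27, and in 0.603% of genes. Of these 9 holders of ERSE, Creld2 alone passed by edgeR after VCR, and 4 had values above 0 (Calr, Creld2, Syvn1 and Derl3) and 5 below.

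Hspa5 and Hsp90b1 had been named in the plan for printing. Creld2 and Canx were the other holders of ERSE with the lowest unadjusted p after VCR, with values above and below 0. Promoters of these genes are printed. Each shows the 250 bases before the start on the strand of the gene, with the CCAAT and CCACG of each full ERSE, or their reverse complements, in capitals and other copies of either left in lower case. They lie at chr2:34771840-34772089 (plus strand), chr10:86705445-86705694 (minus strand), chr15:88819396-88819645 (plus strand) and chr11:50325674-50325923 (minus strand). Hsp90b1 held ERSE at 2 places, 1 on each strand, and the others at 1. A match of letters is a description and does not show that a factor was bound.
Hspa5 promoter: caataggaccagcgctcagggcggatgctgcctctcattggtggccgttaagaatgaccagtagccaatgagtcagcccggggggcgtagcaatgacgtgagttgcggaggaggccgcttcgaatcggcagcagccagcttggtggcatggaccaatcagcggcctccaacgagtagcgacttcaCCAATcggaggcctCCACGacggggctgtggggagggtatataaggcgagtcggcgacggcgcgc
Hsp90b1 promoter: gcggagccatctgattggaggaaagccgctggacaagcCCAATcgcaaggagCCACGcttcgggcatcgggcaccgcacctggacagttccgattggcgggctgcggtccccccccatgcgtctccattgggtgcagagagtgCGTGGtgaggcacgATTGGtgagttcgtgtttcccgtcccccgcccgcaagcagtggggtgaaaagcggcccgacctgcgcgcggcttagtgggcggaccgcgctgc
Creld2 promoter: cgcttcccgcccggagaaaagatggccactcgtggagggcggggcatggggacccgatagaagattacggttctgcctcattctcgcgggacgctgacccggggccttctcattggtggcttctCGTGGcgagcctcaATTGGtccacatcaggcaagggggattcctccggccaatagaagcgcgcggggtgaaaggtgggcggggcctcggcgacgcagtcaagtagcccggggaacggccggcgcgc
Canx promoter: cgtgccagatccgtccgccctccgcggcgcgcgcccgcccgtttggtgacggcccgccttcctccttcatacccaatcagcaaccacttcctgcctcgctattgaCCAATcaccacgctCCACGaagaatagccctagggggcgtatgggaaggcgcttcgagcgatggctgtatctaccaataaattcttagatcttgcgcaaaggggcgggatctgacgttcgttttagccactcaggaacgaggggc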

How the data were processed

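Per the labels and the study's methods, poly-A enriched libraries were quantified by the authors with kallisto on GRCm38 transcripts, and the deposited tables hold estimated counts and TPM values per RefSeq transcript; the submitters' processing notes also name DESeq2. All 120299 transcripts matched 38898 genes of GRCm38.p6. Estimated counts were summed per gene and rounded. edgeR 4.0.16 in R 4.3.3 (TMM, filterByExpr with a minimum count of 10, quasi-likelihood F test) was fitted to all 12 tumors in 4 groups, without covariates, with Benjamini-Hochberg adjustment over 17602 genes and a threshold of 0.1, and standard errors came from the F statistic. Counts were also simulated in a single draw from fitted means and dispersions, with genes independent and fixed changes in a set of genes in VCR only. In that draw 10.98% of edgeR's calls, 12.4% of limma-voom's and 25.1% of DESeq2's were false at this threshold. The draw held no drift with transcript length or muscle RNA, so these shares do not give the rate of false calls in the tumors. Alternatives were DESeq2 1.42.0, limma-voom (limma 3.58.1), other filters, scalings and length offsets, a threshold of 0.05 and leaving out tumors. Relations used 100000 permutations and a pseudocount of 0.1. The members and gene lists were chosen with earlier results of these data known; values in every tumor were given for 15 listed members, for those called and for those with the lowest p of a comparison. The methods name a stranded kit but call the libraries non-stranded, so reads of a gene and of an overlapping antisense gene may not be told apart, and 10 members overlap an annotated gene on the other strand. Transcripts shared by forms of a gene, as for Xbp1, were divided by kallisto's estimation.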

Additional observations from a re-analysis of the deposited data

How the results depend on the processing

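Members called after VCR numbered 3, as 2 higher and 1 lower. DESeq2 size factors gave 2 higher and 2 lower, beside 413 higher and 525 lower among all genes. The count of members was 8 by DESeq2's Wald test, 1 without m5 and m9, 0 with smooth length offsets (chosen after seeing the data), 0 at an adjusted p of 0.05 and 0 to 7 when single tumors were left out. For the interaction it was 2 by DESeq2 in place of 0. For VCR averaged over RCM1-NPFA it was 1 by DESeq2, 1 without m5 and m9 and 0 to 1 leaving out single tumors. Beside 977 genes in all after VCR stood 599 when no gene was filtered out, 465 when each pair of groups was fitted alone, 2215 by DESeq2, 253 without m5 and m9, 43 with smooth length offsets, 9 at 0.05 and 0 to 2012 without single tumors. In place of 0 genes, RCM1-NPFA gave 278 by DESeq2 and 0 to 8 without single tumors; both drugs 60, 138 without m5 and m9, and 0 to 44; the interaction 472 and 0 to 1; averaged VCR 163, 268 without m5 and m9, and 0 to 341. The cause was not tested for these shifts.

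Signs turned for values that did not pass. After VCR, Herpud1 was 0.012 by limma-voom, 0.038 without m5 and m9 and -0.19 to 0.30 without single tumors; Dnajb9 ran -0.25 to 0.077, Xbp1 -0.14 to 0.14 and Derl3 -0.34 to 0.53. After RCM1-NPFA, Hspa5 ran -0.11 to 0.050 and Hsp90b1 -0.091 to 0.064. With smooth length offsets, which moved the median of all genes after VCR to -0.083, Calr was -0.041 and Sdf2l1 -0.023 after VCR, both above that median, and Creld2 was -0.0039 after both drugs. The 3 genes called after VCR kept their signs in that comparison under every setting, with ranges without single tumors of 0.68 to 0.85 for Wfs1, -1.15 to -0.80 for Ern1 and 0.20 to 0.30 for Creld2, which stood at 0.060 with smooth length offsets. The difference in the spliced share of Xbp1 ran -10.6 to -5.21, -7.11 to -1.71 and -7.11 to -1.26 percentage points after VCR, RCM1-NPFA and both. The Pearson relations across tumors held their side of 0.05 with a pseudocount of 1 and on log2 TPM. Derl3 had 10 to 32 counts per tumor, which limits its values. No paired analysis was possible because no groups share replicate numbers.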
